A study of Mus musculus with 3 samples.

Results

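The MAP kinase phosphatases are enzymes that switch MAP kinases off, and 10 of their genes (Dusp1, Dusp4, Dusp5, Dusp6, Dusp7, Dusp8, Dusp9, Dusp10, Dusp14 and Dusp16) were examined in cultured mesenchymal stem cells (MSCs). The genes were chosen by name, and each matched a single row of a table of 43346 genes, 22032 of them protein-coding. RNA had been sequenced from 3 libraries of MSCs grown out of the fat pads of adult C57BL/6 mice in medium with 10% serum, in a study of cell transplantation and narrowing of haemodialysis fistulas. All 3 libraries belong to 1 group with no treatment named, so no condition was compared, and since nothing in the labels ties a library to a mouse or a culture of its own, every SD may be technical. The labels give no sex, fat depot or passage for the cells.

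MAP kinases are activated when an upstream kinase places phosphate on both a threonine and a tyrosine of their activation loop, and the dual-specificity phosphatases remove both. Some members (Dusp1, Dusp4, Dusp5) are nuclear and are transcribed within minutes of a stimulus, often under the control of the MAP kinase they will inactivate. Others are cytoplasmic and prefer the kinase ERK (Dusp6, Dusp7, Dusp9), and a further group prefers the stress kinases JNK and p38 (Dusp8, Dusp10, Dusp16). Dusp14 is a small phosphatase without the amino-terminal kinase-binding domain of the other members. Because serum and growth factors feed the ERK pathway, RNA of these genes is widely used as a readout of pathway feedback.

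The catalytic site shows the family most directly, and the coding sequence of each member's main mRNA held exactly 1 stretch of 8 codons for a histidine-cysteine pair followed, after 5 residues, by an arginine. The 24 bases are given in the order of the classes above, from GENCODE M21 on mm10, with the histidine, cysteine and arginine codons in capitals.
Dusp1: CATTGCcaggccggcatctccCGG
Dusp4: CACTGCcaggccggcatctccCGA
Dusp5: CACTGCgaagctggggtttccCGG
Dusp6: CATTGCttggcaggtatcagcCGC
Dusp7: CACTGCctagcaggcatcagcCGT
Dusp9: CACTGTctggcaggggtcagcCGC
Dusp8: CACTGTctggctggcatctctCGC
Dusp10: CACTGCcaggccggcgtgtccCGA
Dusp16: CACTGCttagctgggatctctCGC
Dusp14: CACTGTgcggcaggcgtgagcCGC
The stretch of Dusp4 differed from that of Dusp1 at 2 bases and coded for the same residues. Among the other members 4 to 10 bases differed, and 1 or 2 of the encoded residues, with Dusp14 the farthest from Dusp1. The site began at codon 110 of 198 in Dusp14, the shortest member. In Dusp8 and Dusp16 it began at codons 245 of 663 and 243 of 660, so that both JNK and p38-directed genes have a long coding tail behind the catalytic site, whereas in Dusp10 it lay at codon 408 of 483.

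The genes are not clustered and lie on 10 chromosomes of mm10. The main mRNAs of the nuclear genes span chr17:26505590-26508519 on the minus strand (Dusp1, 4 exons), chr8:34807297-34819894 on the plus strand (Dusp4, 4 exons) and chr19:53529109-53542431 on the plus strand (Dusp5, 4 exons). The ERK-directed genes are all on the plus strand, at chr10:99263231-99267488 (Dusp6, 3 exons), chr9:106368632-106375724 (Dusp7, 3 exons) and chrX:73639419-73643514 (Dusp9, 4 exons). Dusp8 (chr7:142079490-142095272, minus strand) and Dusp16 (chr6:134715473-134792625, minus strand) have 7 exons each, and Dusp10 (chr1:184034381-184075636, plus strand) has 4. Dusp14 lies at chr11:84048041-84068801 on the minus strand, with 4 exons.

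The unit of the deposited values is RPKM, reads per kilobase of gene model scaled to a common library size, which can be compared between genes. Detection was set at an RPKM of at least 1 in each of the 3 libraries. 9 of the 10 members were detected, against 47.4% of the protein-coding genes and 28.3% of all genes in the table. At a threshold of 0.5 it was the same number, against 51.9% and 32.3%, and at 2 it was 8 members, against 40.5% and 23.6%. Rescaled to TPM, which lowers every value, 6 members reached 1, against 35.4% and 20.5%. The median level of the members was 2.40 ± 0.04 on the log2(RPKM + 1) scale (SD over libraries, n = 3), above the 0.85 ± 0.0045 of all protein-coding genes and below the 2.91 ± 0.0051 of those detected. 4 members (Dusp1, Dusp4, Dusp6 and Dusp5) exceeded an RPKM of 6.55, the median over detected protein-coding genes. RNA of a mixed culture cannot tell fewer expressing cells from less RNA per cell.

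All 8 MSC surface marker genes examined were detected, with a summed RPKM of 505 to 529 per library, mostly Itgb1 at 329. Thy1 was at 35.9, and the lowest was Nt5e at 1.15, near the threshold. None of the endothelial, mature adipocyte, epithelial and lymphocyte markers was detected, and Adipoq and Cldn5 were listed at 0. The epithelial marker Krt14 missed the threshold in library 3 alone, at 1.20, 1.21 and 0.870 in libraries 1, 2 and 3. All 4 mesothelial markers were detected as well, with a summed RPKM of 95.6 to 106. Of these Upk3b was the highest at 43.7, above Thy1, and Wt1 the lowest at 12.6. Also detected were 3 of 6 leukocyte and macrophage markers (summed RPKM 32.1 to 34.5, mostly Lyz2, with Ptprc at 0.136). The part of mesothelial cells, leukocytes and macrophages in the phosphatase levels was not tested.

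The inducible nuclear genes were the most abundant class. Dusp1, whose product acts on p38, JNK and ERK and is the classical serum- and stress-induced member, had an RPKM of 29.8, 28.7 and 28.4 in libraries 1, 2 and 3. This was the highest level of the family in every library, 28.9 ± 0.716 (mean ± SD, n = 3), which ranked 1220 among the 22032 protein-coding genes. Dusp4, the nuclear phosphatase closest to it in the catalytic sequence above, had 17.6, 18.4 and 18.5. The libraries of each gene lay close together and did not overlap between both genes, Dusp1 being 1.59 ± 0.085 times as high as Dusp4. Dusp5, a nuclear phosphatase that prefers ERK, had 10.4, 10.2 and 13.0. In RPKM libraries 1 and 2 were alike and library 3 stood above both, a spread taken up below.

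Among the cytoplasmic ERK-directed genes a single member supplied most of the RNA. Dusp6, the feedback phosphatase induced by growth factor signalling through ERK, had 17.5, 16.7 and 16.4. It lay below Dusp4 in each library, by a ratio of 1.006, 1.10 and 1.13, so in library 1 the difference was smaller than the counting error of either gene (2.53% for Dusp4 and 2.61% for Dusp6). Dusp7, a close relative of Dusp6, had 5.13, 5.78 and 5.86, lowest in library 1. Dusp6 was therefore 3.03 ± 0.332 times as high as Dusp7. Dusp9, known in mouse chiefly for its role in the placenta, was the only member not detected, at 0.485, 0.323 and 0.471. Its values correspond to 38, 29 and 41 inferred reads, above the limit of 3 reads that a count of 0 allows.

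The JNK and p38-directed genes were lower and closer to each other. Dusp10 had 3.29, 3.30 and 2.89 and Dusp16 had 3.25, 3.15 and 3.06. The ranges of these genes overlapped, and their means, 3.158 ± 0.236 and 3.157 ± 0.0959, could not be ordered. Dusp8, best known from brain and heart, had 1.69, 1.60 and 1.28, lowest in library 3 and below Dusp16 by a ratio of 2.09 ± 0.255 (Dusp16 over Dusp8). Dusp14 had 2.18, 2.24 and 2.76, between Dusp16 and Dusp8, with library 3 the highest.

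**Figure D1:**
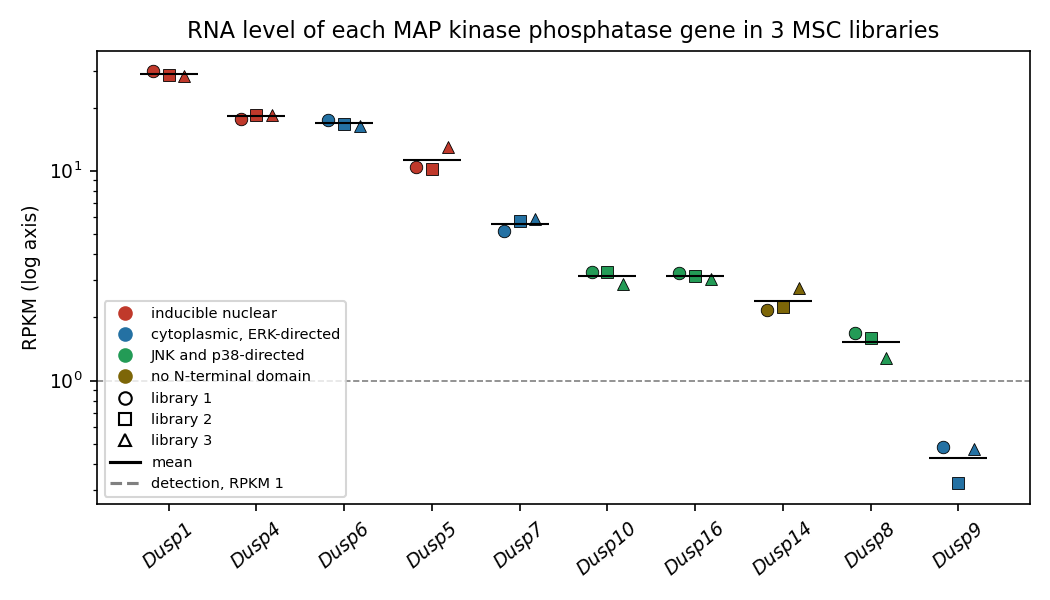
RPKM (log axis) of the 10 genes in libraries 1, 2 and 3, ordered by mean (black line) and coloured by class; the dashed line marks the detection threshold of 1. Dusp1 stands at 28.4 to 29.8, Dusp9 lies below the threshold at 0.323 to 0.485, and Dusp10 and Dusp16 overlap.

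Ordered by level the genes ran Dusp1, Dusp4, Dusp6, Dusp5, Dusp7, Dusp10, Dusp16, Dusp14, Dusp8 and Dusp9. In 8 of the 9 neighbouring pairs the ranges over the 3 libraries did not overlap, the exception being Dusp10 and Dusp16. The comparison of ranges is a description only. An exact permutation test of 3 values against 3 cannot give a two-sided p below 0.10. Ranges that do not overlap are no stronger evidence than that, and the neighbours were set by the same means. The largest step was at the bottom, Dusp8 over Dusp9 at 3.58 times, and the step from Dusp5 to Dusp7 was 2.003 times.

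Added over the family, the 10 genes had 91.2, 90.4 and 92.6 RPKM in the 3 libraries. The inducible nuclear genes made up 63.8% ± 0.786 of it, the ERK-directed cytoplasmic genes 25.02% ± 0.436, the JNK and p38-directed genes 8.58% ± 0.669 and Dusp14 2.62% ± 0.320. Dusp1 alone contributed 31.7% ± 0.976, and Dusp1, Dusp4 and Dusp6 together 70.0% ± 1.45. The cytoplasmic ERK-directed class exceeded the JNK and p38-directed class by 1.49, 1.501 and 1.65 on the log2 scale in libraries 1, 2 and 3, which is 2.93 ± 0.185 times. Dusp6 made up most of the ERK-directed sum, and Dusp9, of the same class, was the lowest gene of all. With the mean of log2(RPKM + 1) in place of the sum it was 0.65.

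**Figure D2:**
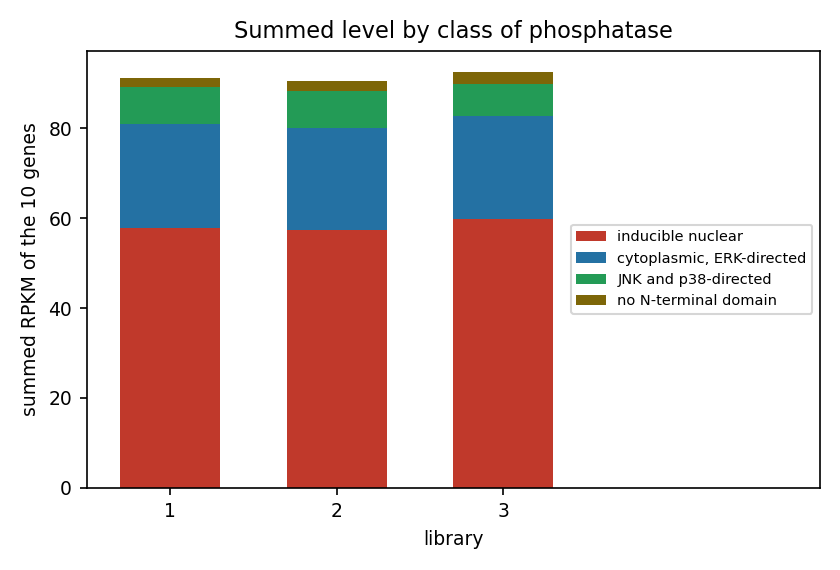
Summed RPKM of the 10 genes in each of the 3 libraries, divided by class. The totals are 91.2, 90.4 and 92.6, and the inducible nuclear class takes 63.3% to 64.7% of each.

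The level of a gene in RPKM depends on the length of the gene model it is divided by. Low values of the table step in whole reads (28791600, 32961900 and 32000800 reads as the inferred scaling totals of libraries 1, 2 and 3). With these totals 7 members came out within 0.03 of whole reads in all 3 libraries at the exon length of GENCODE M21 with 1 base added. For Dusp1 and Dusp6 a shorter length gave whole reads, 2697 and 2796 bases. That of Dusp6 is its main mRNA, and that of Dusp1 is the union of the mRNA with 2 annotated retained-intron transcripts. Dusp16 came out whole at 7650 bases, a length that matched no union of its transcripts in M21. The inferred reads per library then ran from 2311, 2551 and 2451 for Dusp1 down to the counts of Dusp9 given above.

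Per length of the main mRNA instead, 1990 bases for Dusp1, its level became 39.2 ± 0.971. Dusp16, with 5104 bases, rose to 4.73 ± 0.144 and moved above Dusp10 at 3.44 ± 0.257, without overlap. Dusp14 became 2.96 ± 0.396 and now overlapped Dusp10. Dusp4, Dusp5, Dusp6 and Dusp9 did not move because their model is the main mRNA. The JNK and p38-directed class then made up 9.31% of the family and the ERK-directed class exceeded it by 1.252 on the log2 scale. This rescaling assumes that all reads came from the main mRNA, which the table does not show.

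**Figure D3:**
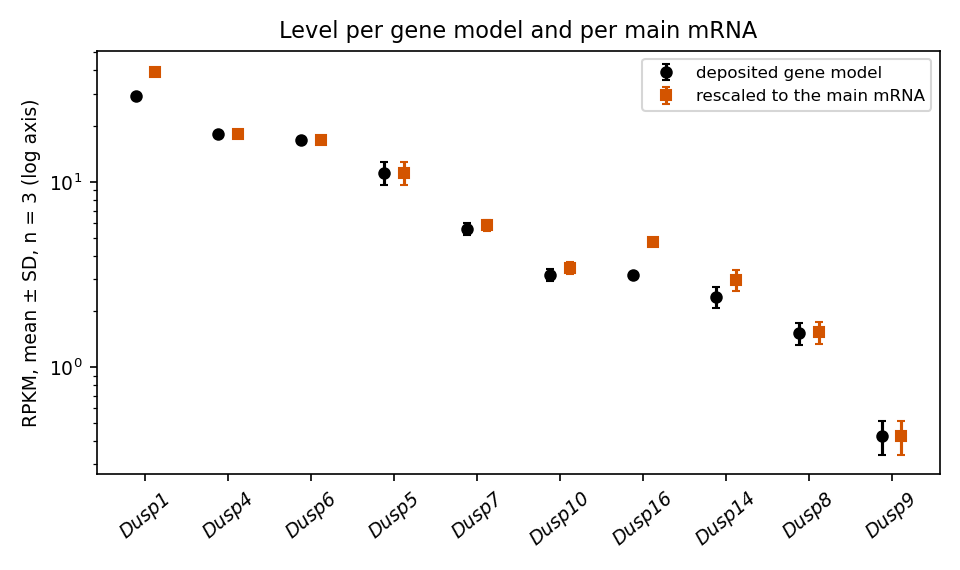
Mean ± SD (n = 3) of RPKM on a log axis, per deposited gene model (black circles) and rescaled to the main mRNA (orange squares). Dusp1 moves from 28.9 to 39.2 and Dusp16 from 3.157 to 4.73, which separates Dusp16 from Dusp10.

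The members differed among themselves in their spread between libraries. For the 9 detected members the coefficient of variation had a median of 7.18%, and the median over 10447 detected protein-coding genes was 4.95%. The order of these medians rested on which libraries were used: without library 1 they were 2.03% and 3.86%, without library 2 9.20% and 4.36%, and without library 3 2.58% and 3.86%, so the members were the lower in the first and last case. Counting error contributes more to low genes, so the variance was divided by what counting alone gives. The ratio was 1.43 for Dusp1, 1.16 for Dusp4, 1.64 for Dusp6 and 0.675 for Dusp16, and 1 is what counting error alone gives. The median over 7504 detected protein-coding genes with as many reads as the detected members was 2.18, with quartiles of 0.90 and 4.66, and 4 of the 9 detected members lay at or above that median.

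Dusp5 had the highest ratio of the 10 genes, 16.9, a value reached by 2.48% of the 7504 genes. It rests on library 3: 1029 reads there against 740 and 834 in libraries 1 and 2. Without library 3 its ratio was 0.0964 and its mean RPKM 10.3. The spread of Dusp5 in TPM, which raises library 1 against the others, was not computed. Dusp8, Dusp14 and Dusp10 also had their outlying value in library 3, Dusp14 being higher there and Dusp8 and Dusp10 lower. Their ratios were 4.55, 2.60 and 1.70 with all libraries and 0.363, 0.0616 and 0.0023 without library 3. Dusp7 was lower in library 1 (ratio 2.89, and 0.0608 without it). With all libraries the ratios of Dusp7, Dusp8, Dusp10 and Dusp14 lay within the quartiles of 0.90 and 4.66 given above. For each of these genes and Dusp5 the library left out was the one farthest from the others. A lower ratio without it was therefore fixed by that choice. The library in question was not the same for all members. Over the family 4 genes were highest and 5 lowest in library 3. The same shares over all detected genes were not computed, so these counts cannot be read as particular to the members.

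Part of the Dusp5 gene model cannot be assigned to a strand. The antisense transcript AC137853.2 overlaps 547 of its exon bases, 22.1% of the model, and the TruSeq V2 library kit does not mark strand, so reads of both cannot be told apart. AC137853.2 was not analysed here. The overlaps of Dusp1 with Ergic1 (11 bases) and of Dusp8 with Gm32786 (66 bases) were small, and no other gene's transcript aligned to a member over at least 100 bases at 90% identity or more.

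**Figure D4:**
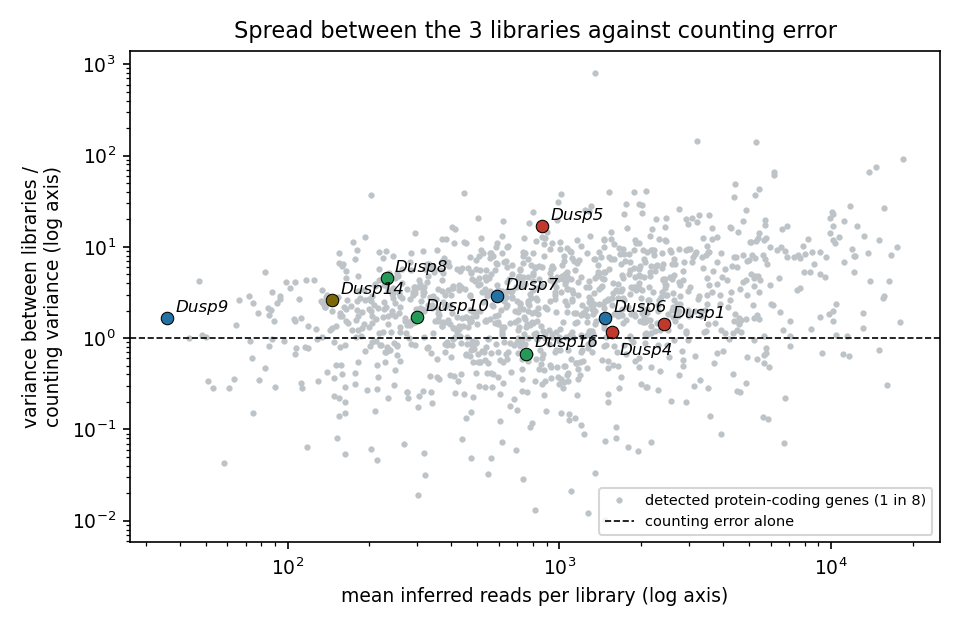
Variance between the 3 libraries divided by counting variance, against mean inferred reads per library (both log axes), for the 10 genes (coloured by class) and every eighth detected protein-coding gene within the axis range (grey); the dashed line is counting error alone. Dusp5 stands at 16.9, while Dusp1, Dusp4, Dusp6 and Dusp16 lie between 0.675 and 1.64.

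The promoters of 8 members were held in the RefSeq table for GRCm38.p6, from 250 bases before to 50 bases after the start, and those of Dusp4 and Dusp9 were not used. 3 are shown because they hold the elements through which inducible genes are known to respond: the CRE, bound by CREB and ATF factors (TGACGTCA), and the CArG box, bound by the serum response factor SRF. These elements are in capitals.
Dusp1, chr17:26508423-26508722, minus strand: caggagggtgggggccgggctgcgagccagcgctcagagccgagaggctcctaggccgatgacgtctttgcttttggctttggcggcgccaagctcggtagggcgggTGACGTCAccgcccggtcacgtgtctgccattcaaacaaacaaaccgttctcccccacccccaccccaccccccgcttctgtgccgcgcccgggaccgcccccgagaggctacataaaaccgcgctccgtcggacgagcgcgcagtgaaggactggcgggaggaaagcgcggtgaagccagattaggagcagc
Dusp8, chr7:142095235-142095534, minus strand: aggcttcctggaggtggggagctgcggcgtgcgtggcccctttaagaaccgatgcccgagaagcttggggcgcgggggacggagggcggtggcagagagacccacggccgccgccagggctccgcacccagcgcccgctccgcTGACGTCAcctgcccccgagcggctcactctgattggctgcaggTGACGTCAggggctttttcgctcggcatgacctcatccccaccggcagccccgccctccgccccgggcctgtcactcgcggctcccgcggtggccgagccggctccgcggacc
Dusp5, chr19:53528895-53529194, plus strand: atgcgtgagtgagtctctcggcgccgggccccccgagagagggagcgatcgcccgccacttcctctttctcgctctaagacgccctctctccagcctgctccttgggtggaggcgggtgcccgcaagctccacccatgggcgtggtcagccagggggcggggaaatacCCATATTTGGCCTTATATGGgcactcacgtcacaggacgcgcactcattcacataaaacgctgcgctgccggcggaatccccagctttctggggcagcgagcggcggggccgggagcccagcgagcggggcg
Dusp1 had 1 CRE and Dusp8 had 2, on a motif found in 1.88% of 27025 promoters of the same length. Dusp5 had 2 adjacent CArG boxes, starting at -82 and -72 from the start site, and 1.57% of all promoters held at least 1. None of the other members searched had either element in this window, and Dusp4 and Dusp9 were not searched. The highest and the second lowest gene of the family thus share the CRE.

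Both strands were searched for further motifs, none of which overlapped the elements in capitals. The AP-1 motif TGANTCA (7.93% of all promoters) and the TATA box TATAAA (14.2%) were in none of the 8 promoters. The GC box GGGCGG was in 7 of 8 (35.9% of all promoters), the CCAAT box CCAAT in 5 of 8 (37.9%) and the E-box CACGTG in Dusp1 alone (7.24%). The median CpG count of the 8 promoters was 29.5 in 300 bases. Over all promoters the median was 7 and the upper quartile 21. Of the 8, 7 were at or above that quartile, and Dusp6 had 19. The background of all promoters, for CpG and for the motifs, was not limited to detected genes, whereas all 8 of these members were detected. Shares over detected protein-coding genes alone were not computed, so these values cannot be read as particular to the family. A match is a description of the letters and no evidence of binding.

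Of 12 genes for CREB, SRF and AP-1 factors 11 were detected. The highest encode AP-1 factors, whose motif was in none of the 8 promoters, namely Junb at 34.6 ± 0.924, Fosl2 at 33.3 ± 1.33 and Jund at 22.0 ± 1.72, and the lowest was Crem, which encodes a CRE-binding factor and was not detected, at 0.950 ± 0.0833. The other CRE-binding factors of the list, named outside the rule for named genes, were lower than the AP-1 factors named, with Atf1 at 9.38 ± 0.291, Atf2 at 4.17 ± 0.102 and Creb1 at 2.88 ± 0.0931. Srf, named likewise beside the Dusp5 promoter, had 18.4, 18.3 and 20.1 in libraries 1, 2 and 3. Egr1 and Fos, also targets of SRF and likewise chosen after their values were seen, had 18.4, 19.2 and 18.5 and 18.1, 16.4 and 14.5. Library 3 was the highest for Srf and Dusp5, and the lowest for Fos.

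Messenger RNAs of immediate early genes are known to be short-lived through AU-rich elements in the 3' untranslated region, and the members differed in these. Dusp1 had 4 ATTTA pentamers in 690 bases, or 5.80 per kb, and the upper quartile over 19302 genes was 2.82. The longer form TATTTAT, present in 27.9% of those genes, occurred 3 times in Dusp1 and 2 times in Dusp8 and in no other member. A window of 30 bases around the first is shown for both, with the element in capitals.
Dusp1: ctggtcctTATTTATttaacacccccctca
Dusp8: cgatttttTATTTATttaagctagtgatct
Dusp4, Dusp8, Dusp10 and Dusp16 had 1.80, 2.11, 2.70 and 1.24 pentamers per kb, Dusp5, Dusp6 and Dusp9 between 0.84 and 0.90, and Dusp7 and Dusp14 had none. Dusp1 was therefore the most abundant member and the one with the densest pentamers, while Dusp8, with the same longer element, was among the lowest. All 6 genes for AU-rich element binding proteins were detected. The highest were Khsrp at 34.2 ± 0.423, Zfp36l2 at 29.6 ± 1.59 and Zfp36l1 at 25.4 ± 1.97, and the lowest was Elavl1, which encodes the stabilising protein HuR, at 10.6 ± 0.233.

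The kinases on which the phosphatases act were set beside them. Among the ERK genes Mapk3 (ERK1) had 21.1 ± 0.400 and Mapk7 (ERK5) had 3.75 ± 0.2499. Of the JNK genes Mapk9 had 6.09 ± 0.0752 and Mapk8 2.31 ± 0.125, while Mapk10, the neuronal form, had 0.0562 ± 0.00956. Of the p38 genes Mapk14 was the highest at 12.3 ± 0.0810, followed by Mapk13 at 3.51 ± 0.461, Mapk11 at 2.87 ± 0.308 and Mapk12 at 2.11 ± 0.183. RNA of the JNK genes summed to 8.46 ± 0.153 and of the p38 genes to 20.8 ± 0.240, and the p38 sum was the higher in each library. Among the atypical kinases Mapk6 had 13.2 ± 0.212, Mapk4 0.355 ± 0.0448 and Mapk15 0.0925 ± 0.0856.

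Upstream kinases were detected with few exceptions. 6 of 7 MAP2K genes were, led by the ERK activators Map2k1 at 30.7 ± 0.961 and Map2k2 at 26.2 ± 1.38 and the p38 activator Map2k3 at 13.6 ± 0.365. Map2k6, which also encodes a p38 activator, was the lowest, at 0.408 ± 0.0263. All 6 RAF and RAS genes were detected, from Hras at 12.7 ± 0.947 and Nras at 10.8 ± 0.487 to Braf at 4.21 ± 0.0638. All 7 stress MAP3K genes were detected as well, from Map3k7, which encodes TAK1, at 12.9 ± 0.805, Map3k3 at 12.1 ± 0.738 and Map3k11 at 5.10 ± 0.304 to Map3k5, which encodes ASK1, at 1.78 ± 0.109.

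Other known brakes on the pathway and the other dual-specificity phosphatases, not all of which act on MAP kinases, ranged from levels near those of Dusp1 to genes listed at 0. All 6 Sprouty and Spred genes matched were detected, namely Spry2 at 27.8 ± 1.56, Spry1 at 17.8 ± 0.924 and Spred1 at 16.2 ± 0.712 as the highest and Spred3 at 4.61 ± 0.510 as the lowest; Spry3 was not analysed here. Of 16 other dual-specificity phosphatases 8 were detected, and none exceeded Dusp5 in mean RPKM. The highest was Dusp3, which can act on ERK and JNK, at 10.6 ± 0.590. Dusp3 stood above Dusp5 in libraries 1 and 2, at 11.2 and 10.4 against 10.4 and 10.2. In library 3 it stood below, at 10.1 against 13.0. Dusp11, an RNA phosphatase, followed at 7.82 ± 0.214 and Dusp22 at 3.37 ± 0.252, while Dusp21 and Dusp26 were listed at 0. Dusp2, the remaining inducible nuclear family member, which is known from immune cells, had 0.0347, 0.0606 and 0.0312 and was not detected.

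Of 8 phosphatases of other families that act on MAP kinases or their activators 5 were detected, led by the catalytic subunits of PP2A and by PP2C, with Ppp2cb at 28.6 ± 1.02, Ppm1a at 25.1 ± 1.47 and Ppp2ca at 15.1 ± 1.21. The tyrosine phosphatase gene Ptprr was listed at 0. Among 12 genes known to be transcribed downstream of ERK 11 were detected. Phlda1 at 42.3 ± 2.21, Ier3 at 25.1 ± 1.49 and Egr1 at 18.7 ± 0.412 were the highest, and Etv1 at 0.0764 ± 0.0351 the lowest. Dusp6 and Dusp4, which belong to the same known output of ERK, lay within the range of this list. So did every other member, so the range does not set these genes apart.

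**Figure D5:**
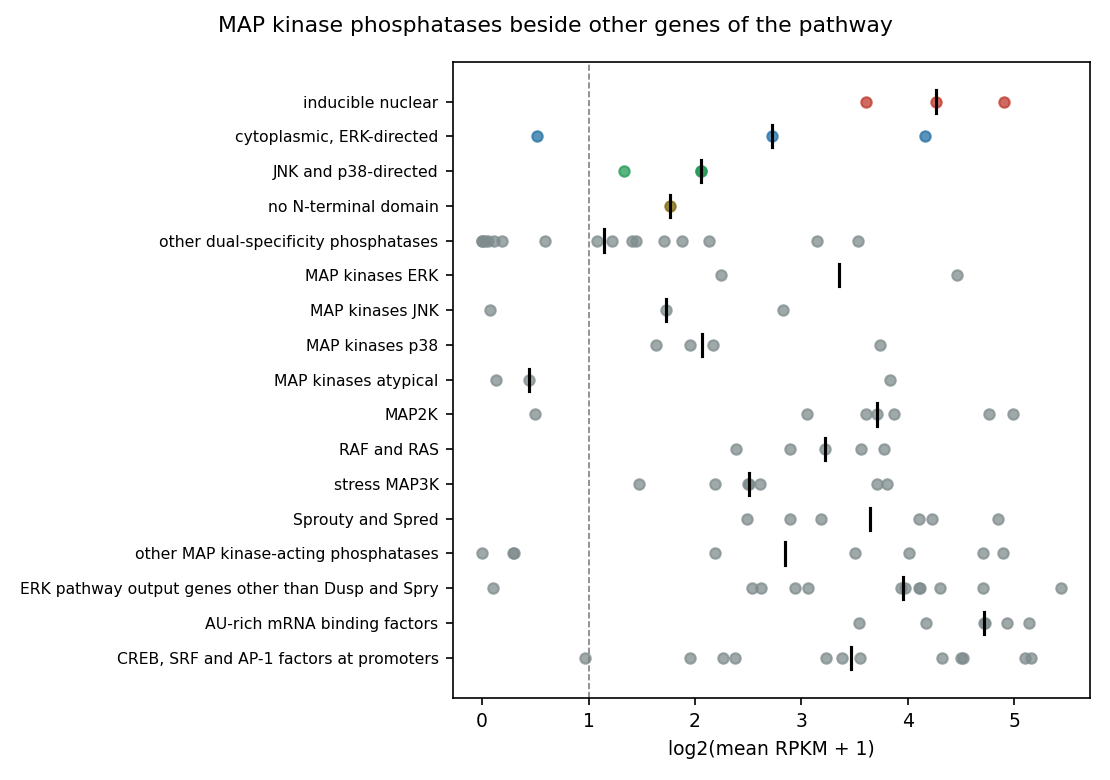
Mean level of the genes of each list, except 2 not reported here, as log2(mean RPKM + 1), with members of the phosphatase family coloured by class and other lists in grey; black bars are list medians and the dashed line is a mean RPKM of 1. Of 93 other genes matched, 76 were detected, and genes below the dashed line are most numerous among the other dual-specificity phosphatases.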

How the data were processed

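RNA had been purified with the miRNeasy kit and made into libraries with the TruSeq V2 kit from total RNA, per the labels' protocols. The authors deposited RPKM values per gene for 3 libraries, named as such in the file headers. Reads were placed on mm10, per the submitters' processing notes. No aligner, counter or annotation release is named there. Replicate numbers follow the titles.

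Levels were used as deposited, with means and SDs over libraries and log2(RPKM + 1) for list medians. Library totals were inferred from the steps of low values: 28791600, 32961900 and 32000800 reads for libraries 1, 2 and 3, at which 79.7% to 80.1% of 15867 to 16278 genes per library fell within 0.05 of whole reads. The inference was tested on simulated data. Reads without molecular identifiers are not independent, so counting errors cover counting only. The length of Dusp1, Dusp6 and Dusp16 was searched within 25% of that of GENCODE M21, and 42462 identifiers matched M21. Promoters came from RefSeq (GRCm38.p6). No protein sequence was used. Named genes were all members, and of each other list the 3 highest, the lowest and those listed at 0, or all of a list of 4 or fewer. A few genes of these lists are not reported here. The members and lists were chosen with earlier results of these data known. Alternatives were other thresholds, pseudocounts, scalings, class definitions and leaving out each library; the main mRNA length was added after seeing the data. Python 3.11.15, numpy 2.4.6, pandas 2.3.3, matplotlib 3.10.9 and BLAST 2.17.0 were used.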

Additional observations from a re-analysis of the deposited data

How the results depend on the processing

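All results describe 3 libraries of a single group, and no test of a condition was possible. No paired analysis was possible because there is a single group. Of 96 alternative values 78 stayed within the spread between libraries (for counts, within 1.5 times) and 18 moved, and none reversed. Leaving out a library cannot shift a mean over the 3 libraries by as much as their SD. For means those alternatives could therefore only stay, and they add nothing to the count as a check. The number of detected members was 9 at an RPKM of 0.5, 8 at 2 and 6 in TPM, where 35.4% of protein-coding genes were detected in place of 47.4%. In TPM the ranges of Dusp4 and Dusp6 also overlapped, leaving 7 separate neighbours. TPM multiplied libraries 1, 2 and 3 by 0.389, 0.336 and 0.334, which raised library 1 against the others. Within each library Dusp4 stayed above Dusp6. Per main mRNA length Dusp10 overlapped Dusp14 and not Dusp16, and without library 3 all 9 neighbours were separate. The median level of the members became 2.12 with a pseudocount of 0.1, 1.33 in TPM and 2.65 per main mRNA length. With Dusp1 left out, the class shares were 47.0% for the inducible nuclear, 36.6% for the cytoplasmic ERK-directed, 12.6% for the JNK and p38-directed class and 3.83% for Dusp14. Per main mRNA length they were 65.7%, 22.1% and 9.31% for the former 3 classes. The log2 ratio of ERK-directed to JNK and p38-directed genes was 0.65 from mean logs, 2.12 with Dusp5 added to the former and 1.252 per main mRNA length. The median SD of the detected members, 0.083 on the log2 scale, ranged from 0.0221 without library 1 to 0.1003 without library 2, and was 0.0344 without library 3; over detected protein-coding genes it was 0.060, and 0.047, 0.053 and 0.047 without libraries 1, 2 and 3. Depth limits Dusp9 most, with a counting error of 16.7%.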
